A study of Mus musculus with 27 samples.

Results

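Among 27 prostate tumours of TRAMP x PWK/PhJ F2 mice, 4 were set apart: P219, P502, P268 and P609. Their bulk RNA held the synaptic vesicle gene Syp together with a raised mean level over 13 genes of the prostate. P609 passed only narrowly, and its Msmb, Tgm4 and Scgb2b27 lay near the median of the comparison tumours described below. These 4 tumours were selected on the array values themselves. Syp had to reach a log2 level of 6.5, which 23 tumours did. A score over 13 prostate genes had to exceed 0.3, which 4 of those 23 tumours did. The score is the mean, over Tmprss2, Fkbp5, Pbsn, Msmb, Sbp, Spink1, Tgm4, Azgp1, Mme, Acpp, Psca, Hoxb13 and Spdef, of the log2 level minus the gene's mean over all 27 tumours. The other 19 tumours with Syp of at least 6.5 served as the comparison, and 4 tumours with less Syp (P425, P1276, P966 and P471) are given beside them. Because the 4 tumours were chosen from the same arrays that are described, all differences below are descriptions and none was tested.

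The study profiled prostate tumours of F2 males from a mixed background of C57BL/6-Tg(TRAMP)8247Ng/J and PWK/PhJ. Non-transgenic sires were crossed to transgenic dams, and every male profiled carried the transgene, so the series has no tumour-free or transgene-negative control. Tumours were taken at 30 weeks, or earlier where an animal reached a humane endpoint, and were snap-frozen, and total RNA of 1 sample per tumour was hybridised to 1-colour Affymetrix arrays. The labels place all 27 tumours in 1 group, and the age of the single animals was not used here. In TRAMP mice the viral T antigens are driven in prostate epithelium by a probasin promoter, which itself responds to androgen.

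The secretory cells of the prostate are luminal epithelial cells that release proteins into seminal fluid, many of them in response to androgen. Neuroendocrine cells carry synaptic vesicle proteins, granins and prohormone convertases instead, and TRAMP tumours are known for neuroendocrine carcinomas that lack most luminal traits. Bulk tumour RNA also holds RNA of the gland around a tumour and of muscle, stroma and immune cells. In such samples fewer cells of a type and less RNA per cell cannot be told apart.

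Syp, which the rule required, stood at 7.58 in P219, 7.93 in P502, 8.10 in P268 and 8.74 in P609. In the 19 others it ranged from 7.41 to 8.62 with a median of 8.08, so the groups overlapped and P609 had the highest Syp of all 27 tumours. The 4 tumours outside the Syp limit lay between 5.16 and 6.18.

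The 13-gene score was 2.13 in P219, 0.91 in P502, 0.85 in P268 and 0.34 in P609. The 19 others ranged from -0.80 to 0.19 with a median of -0.46. P609 lay just inside the limit of 0.3 and P503, at 0.19, just outside it. The samples were not alike in other content: P219 and P268 stood apart from the rest by skeletal muscle genes, and values without these 2 tumours are given where they bear on a result. P425, without neuroendocrine levels of Syp, had the highest score of the series at 3.73, while P1276, P966 and P471 lay between -0.34 and -0.02.

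The promoters of the genes on which the results turn are shown first. They are the 250 bases before the annotated start, from RefSeq on build GRCm38.p6, written 5′ to 3′ in the direction of the gene. Capitals mark the androgen response half-site TGTTCT or its reverse complement AGAACA, searched on both strands. Pbsn, a score gene and the mouse form of the gene whose promoter drives the transgene, is chrX:77853501-77853750 on the minus strand. Cdcp3 is chr7:131174152-131174401 (plus), Ceacam1 is chr7:25477626-25477875 (minus), Pigr is chr1:130826434-130826683 (plus) and Lrrc26 is chr2:25289661-25289910 (plus). These 4 are the genes among the 11 highest and fully separated ones, described below, that hold a half-site.
Pbsn: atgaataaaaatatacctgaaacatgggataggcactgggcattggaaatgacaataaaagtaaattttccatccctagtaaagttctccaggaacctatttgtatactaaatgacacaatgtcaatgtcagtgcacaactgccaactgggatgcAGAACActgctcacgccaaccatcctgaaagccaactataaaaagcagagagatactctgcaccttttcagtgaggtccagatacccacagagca
Cdcp3: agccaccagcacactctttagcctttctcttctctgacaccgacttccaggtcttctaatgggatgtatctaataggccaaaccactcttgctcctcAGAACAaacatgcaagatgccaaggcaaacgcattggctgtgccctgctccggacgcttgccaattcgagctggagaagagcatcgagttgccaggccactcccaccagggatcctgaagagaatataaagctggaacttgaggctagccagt
Ceacam1: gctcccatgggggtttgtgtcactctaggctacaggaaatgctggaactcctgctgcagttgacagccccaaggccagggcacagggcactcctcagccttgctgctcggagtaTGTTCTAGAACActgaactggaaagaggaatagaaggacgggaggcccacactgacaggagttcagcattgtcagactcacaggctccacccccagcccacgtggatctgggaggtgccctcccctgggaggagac
Pigr: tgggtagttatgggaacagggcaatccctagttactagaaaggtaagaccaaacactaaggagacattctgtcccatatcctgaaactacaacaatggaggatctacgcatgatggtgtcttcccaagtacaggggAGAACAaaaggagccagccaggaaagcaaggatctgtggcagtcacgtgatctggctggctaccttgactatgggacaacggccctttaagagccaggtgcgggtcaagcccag
Lrrc26: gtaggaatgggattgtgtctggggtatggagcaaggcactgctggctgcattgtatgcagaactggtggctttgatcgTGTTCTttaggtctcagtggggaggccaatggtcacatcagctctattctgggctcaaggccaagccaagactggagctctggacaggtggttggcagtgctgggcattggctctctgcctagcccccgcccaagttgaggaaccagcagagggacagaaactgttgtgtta

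In these windows the half-site began at -95 in Pbsn, -153 in Cdcp3, -114 in Pigr and -172 in Lrrc26. In Ceacam1 the letters occurred at -136 and at -130, once on each strand and directly side by side. Of the 11 genes, 9 had an entry, with 11 windows in all, and 4 of these windows (36.4%) held a half-site. Over all genes of the RefSeq table, 5284 of 32851 windows (16.1%) held one. Among the score genes 3 of 13 windows (23.1%) did, 1 each of Pbsn, Sbp and Spdef, and among the 3 lower genes described below 0 of 4 windows did. The full palindromic element, AGAACA and TGTTCT 3 bases apart, occurred in 3 windows of the whole table and in none of these. A match of letters describes the sequence and is not a binding site.

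The score genes were raised unevenly among the 4 tumours, and none of the 13 separated all 4 from all 19. Msmb, the secreted beta-microseminoprotein, was 11.62 in P219, 10.28 in P502 and 10.70 in P268, but 4.72 in P609. In the 19 others it ranged from 3.98 to 8.13 (P235) with a median of 4.56. The first 3 tumours thus lay above every one of the 19, and P609 lay near their median.

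Mme, the cell-surface peptidase neprilysin, was high in all 4: 11.71 in P219, 9.63 in P502, 9.45 in P268 and 8.72 in P609. In the 19 others it ranged from 4.16 to 9.09 with a median of 5.12. A single tumour, P474, reached above P609. Tgm4, the prostate transglutaminase, was 11.33 in P219 and 7.73 in P268, but 5.33 in P502 and 5.51 in P609, beside a range of 4.86 to 8.95 (P569) and a median of 5.52. Only P219 lay above all 19 others.

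P609 was high in other score genes than its 3 companions. It had the highest level among the 4 of Sbp, the spermine-binding protein, at 8.11, and of Spink1, a secreted serine protease inhibitor, at 7.03. In the 19 others Sbp reached at most 6.38 (P619) and Spink1 at most 6.27 (P503). Sbp stood at 6.13 in P219, 6.44 in P502 and 4.77 in P268, and Spink1 at 4.92, 5.94 and 4.69 in the same order. P609 lay above all 19 in 2 of the 13 score genes, P268 in 4, P502 in 5 and P219 in 7.

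P219 had the highest level among the 4 in 10 of the 13 score genes, among them Pbsn, encoding the secreted lipocalin probasin, at 7.60, against 4.45 in P502, 4.97 in P268 and 3.64 in P609. The highest of the 19 was P569 at 5.51. Azgp1, a secreted zinc-binding glycoprotein, was 7.29 in P219, 6.81 in P502 and 5.85 in P609, with P268 between the last 2, and the 19 lay between 4.91 and 6.28. Tmprss2, the androgen-regulated membrane protease, was 8.87, 7.85, 6.60 and 6.58 in that order, but P803 among the 19 reached 10.07. Fkbp5, an androgen- and glucocorticoid-responsive chaperone, and Hoxb13, the homeobox factor of the posterior prostate, lay within the range of the 19 in all 4 tumours, with mean differences of 0.03 and 0.49.

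**Figure D1:**
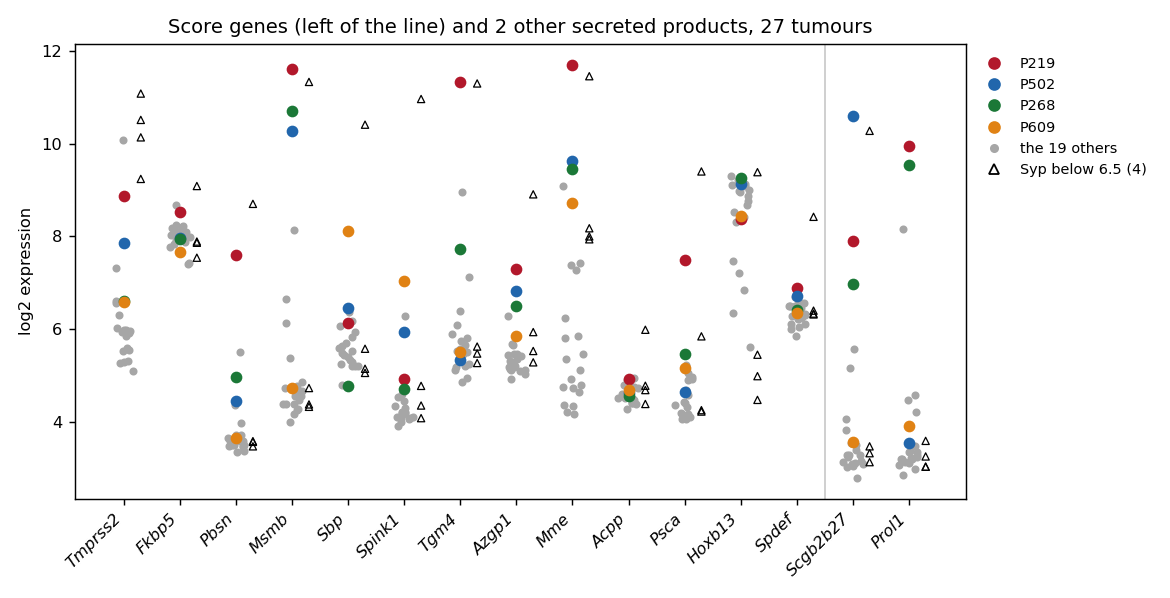
Log2 expression (vertical axis) of the 13 score genes, left of the line, and of Scgb2b27 and Prol1, in each of the 27 tumours. Coloured points are the 4 selected tumours, grey points the 19 others and open triangles the 4 tumours with Syp below 6.5; P219, P502 and P268 stand above the 19 for Msmb, and P609 does not.

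Outside the 13 genes, 22167 genes were compared by the difference between the mean of the 4 and the mean of the 19. The median difference over all of them was -0.04, and 341 genes (1.54%) were at least 1 log2 unit higher and 83 (0.374%) at least 1 log2 unit lower. All 4 tumours lay above all 19 in 16 genes (0.0722%) and below all 19 in 9 genes (0.0406%). These shares come from the contrast that chose the tumours, and nothing is read from them. Both conditions, a difference of at least 1 log2 unit and no overlap, held for 11 higher and 3 lower genes. Without P219 and P268, whose muscle content is described below, 191 genes were at least 1 log2 unit higher, and without P609 the count was 594.

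The 11 higher genes were Cdcp3, Ceacam1, Papss2, Pigr, Lrrc26, Ano1, Abo, Slc10a5, Slc45a3, Lrrc31 and Cyp2b10. Several of them encode membrane proteins of secreting epithelium. Cdcp3, a CUB-domain gene, had the largest difference: 11.84 in P219, 11.60 in P502, 11.21 in P268 and 9.99 in P609. The 19 others ranged from 4.83 to 9.83 with a median of 5.26. The means were 11.16 ± 0.82 (SD, n = 4) and 5.98 ± 1.40 (SD, n = 19), a difference of 5.18 on the log2 scale, and P233 alone of the 19 came near P609.

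Ceacam1, an adhesion molecule on the apical side of epithelia that is also found on immune and endothelial cells, was 12.04 in P219, 11.20 in P502, 9.88 in P268 and 8.63 in P609. The 19 others ranged from 5.37 to 8.50 (P235) with a median of 6.60. The gap between P609 and P235 was narrow, and the other 3 tumours lay well clear. Papss2, which makes the sulfate donor for sulfation of steroids and glycans, was 11.30, 9.85, 8.40 and 7.99 in P219, P502, P268 and P609, and the 19 ranged from 5.31 to 7.44 with a median of 6.01.

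Pigr, the receptor that carries polymeric immunoglobulins across secretory epithelium, was 10.23 in P219 and 10.02 in P502, and 7.42 in P268 and 7.14 in P609. The 19 others lay between 5.20 and 6.76 with a median of 5.66. P219 and P502 were thus set apart from the 19 by more than P268 and P609 were. The plasma cell gene Jchain, whose product Pigr binds, did not follow it: it was 7.13, 4.18, 4.53 and 5.58 in P219, P502, P268 and P609, against a median of 4.37 and a highest value of 7.92 in the 19.

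Genes of ion and fluid transport were among the 11. Ano1, a calcium-activated chloride channel, was 9.86 in P219, 8.59 in P502, 7.32 in P268 and 6.93 in P609, and the 19 lay between 4.94 and 6.80 with a median of 5.77. Lrrc26, an accessory subunit of a large-conductance potassium channel in glands, was 11.50, 9.63, 8.93 and 7.76 in the same order, and the 19 lay between 6.33 and 7.75. For both genes P235 was the nearest of the 19. For Lrrc26 P609 and P235 were nearly level, and the other 3 tumours lay clear of the 19.

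Slc45a3, known as prostein, is a transporter of prostate luminal cells and an androgen-responsive gene. It was 9.58 in P219, 8.76 in P502, 7.11 in P268 and 7.36 in P609, and the 19 lay between 5.59 and 6.64 with a median of 6.07. The difference of the means was 2.05, and 1.91 without P219 and P268. It was the only one of 17 other measured androgen-responsive genes at least 1 log2 unit higher. The list's median difference was 0.32, and Ndrg1, a gene induced by androgen and by hypoxia, had a difference of -1.10.

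Of the remaining 4, Abo, the blood group glycosyltransferase, was 7.88 in P219, 8.19 in P502, 5.97 in P268 and 6.07 in P609, and reached at most 5.49 in the 19. Slc10a5, of the bile acid transporter family, was 7.48, 6.75, 5.22 and 4.35, against at most 4.26. Lrrc31 was 8.60, 7.31, 5.97 and 5.55, against at most 5.46, and Cyp2b10, a cytochrome P450, was 8.26, 5.13, 5.71 and 5.24, against at most 5.07. In Cyp2b10 P219 stood far above the other 3, and the mean difference was 1.47 with all 4 tumours and 0.57 without P219 and P268. For Slc10a5, Lrrc31 and Cyp2b10, P609 lay only a little above the 19, at levels below 5.75, the median of all array values. The same held for P502 in Cyp2b10.

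Over the 14 named genes in which all 4 lay above all 19 (the 11 plus Sec14l4, Phc3 and Slc5a9, at smaller differences), P219 was highest of the 4 in 13 and P609 lowest in 10. The nearest of the 19 was P233 in 6 genes and P235 in 3. P425, with low Syp, lay above all 4 in 14 of the 14 genes, for example at 11.68 for Slc45a3 and 11.83 for Papss2. P1276 and P966 each exceeded all 19 in 6 of the genes and P471 in 4.

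**Figure D2:**
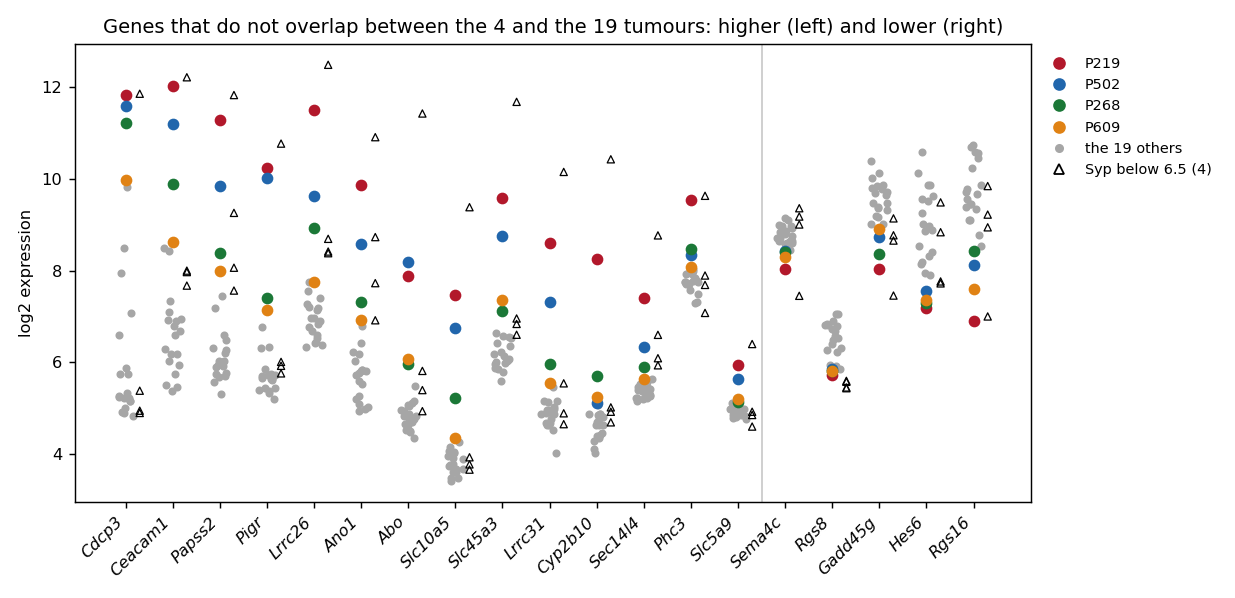
Log2 expression (vertical axis) in 27 tumours of the named genes that do not overlap between the 4 selected tumours (coloured) and the 19 others (grey), higher genes left of the line and lower genes right of it. Open triangles are the 4 tumours with Syp below 6.5; P425 lies above all 4 selected tumours in the 14 higher genes.

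The 3 genes that lay at least 1 log2 unit lower without overlap were Rgs16, Hes6 and Gadd45g. Hes6, a helix-loop-helix factor that favours neuronal and neuroendocrine differentiation, was 7.18 in P219, 7.57 in P502, 7.29 in P268 and 7.37 in P609. The 19 others lay between 7.91 and 10.58 with a median of 8.99. The 4 values lay close together (SD 0.16, n = 4), and the mean difference was -1.68. P471 outside the Syp limit also lay below the 19, at 7.72, as did P425 at 7.77.

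Rgs16, a terminator of G-protein signalling, was 6.91 in P219, 8.13 in P502, 8.43 in P268 and 7.61 in P609, and the 19 lay between 8.54 and 10.75. Gadd45g, a growth-arrest and stress gene, was 8.04, 8.74, 8.35 and 8.91, and the 19 lay between 9.01 and 10.39. The mean differences were -1.97 and -1.09. Rgs8 and Sema4c were lower by less, with mean differences of -0.73 and -0.50. In Rgs8 the highest of the 4 and the lowest of the 19 were both 5.86 after rounding.

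The neuroendocrine genes overlapped between the groups. None of its 18 measured genes was 1 log2 unit higher or lower, and the median difference was -0.03. Chga, encoding chromogranin A, was 8.70 in P219, 10.40 in P502, 10.47 in P268 and 9.53 in P609, and the 19 lay between 9.62 and 11.55. P219 and P609 thus lay below all 19, and the other 2 lay within their range. Insm1, a zinc-finger factor of neuroendocrine cells, lay between 7.73 (P219) and 8.48 (P609), within or just below the 19's range of 7.84 to 9.35. Scg2, encoding a further granin, differed most among the 4: 9.52 in P219, 6.79 in P502, 7.18 in P268 and 11.34 in P609. P609 was the highest of the 23, and P502 and P268 were the lowest.

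The list score, the mean log2 level of a list's measured genes minus their means over 27 tumours, was -0.20 in P219, 0.30 in P502, 0.25 in P268 and 0.65 in P609 for the neuroendocrine list. The 19 ranged from -0.01 to 0.87, and the 4 tumours outside the Syp limit from -2.43 to -1.38. P219 was the lowest of the 23 and still lay far above those 4.

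Further secreted products of the prostate, apart from the score, stood above all 19 in 14 of 23 genes in P219, in 9 each in P502 and P268 and in 2 in P609. Of the 23 measured genes, 11 were at least 1 log2 unit higher, none was lower by as much, and the median difference was 0.83. Without P219 and P268 that median was 0.07, and 8 of the 23 genes were at least 1 log2 unit higher. The list score was 2.40 in P219, 0.95 in P502, 0.81 in P268 and -0.17 in P609, and the 19 reached at most 0.28. P609 alone lay inside their range.

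Scgb2b27, a secretoglobin, was 7.90 in P219, 10.60 in P502, 6.98 in P268 and 3.55 in P609. The 19 others lay between 2.78 and 5.56 with a median of 3.27, so P609 was near their median and the other 3 lay above all of them. P425 reached 10.28. Prol1, a secreted proline-rich protein, was 9.95 in P219 and 9.54 in P268, but 3.54 in P502 and 3.91 in P609. The 19 had a median of 3.23 and a highest value of 8.16 in P235, and P425 was at 3.58. Both products were high in P219 and P268 and neither in P609, and in P502 Scgb2b27 alone was.

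Other products divided the tumours in the same way as Scgb2b27. Defb50, a beta-defensin, was 9.80, 7.45, 7.60 and 3.49 in P219, P502, P268 and P609, and at most 5.15 in the 19. Agr2, a disulfide isomerase of mucus-secreting cells, was 9.14, 7.21, 6.64 and 4.86, and at most 5.45. Pate9, of a family of small proteins of the male tract, was high in P219 alone (10.66 against at most 4.46 in the other 22), and P425 was at 10.41. Spink5, a protease inhibitor of epithelia, was the one product of the list besides Pigr that was clearly above the 19 in P609, at 7.10. It was also 6.85 in P219 and 6.86 in P502, but 5.04 in P268, with at most 5.65 in the 19.

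The genes that serve protein secretion in glandular cells in general differed less. Of 14 measured, none was 1 log2 unit higher or lower, and the median difference was 0.32. Dnajc3, a chaperone of the endoplasmic reticulum, was 9.87 in P219, 9.12 in P502 and 8.75 in P268, above or level with the highest of the 19 (8.74), and 7.94 in P609. Xbp1, the factor of the unfolded protein response, overlapped fully, with a mean difference of 0.11.

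Secretory expression and the general luminal programme were not the same division of the tumours. Of 19 luminal genes, 4 were at least 1 log2 unit higher and none lower, with a median difference of 0.87. That median was 0.17 without P219 and 0.23 without P219 and P268. The luminal list score was 1.80 in P219, 0.35 in P502, -0.29 in P268 and -1.01 in P609, while 3 of the 19, P569, P803 and P1469, reached 1.88, 1.64 and 1.90. These 3 had 13-gene scores of -0.14, -0.33 and -0.56. P1276, P966 and P471 had luminal scores from 2.15 to 2.61 with 13-gene scores no higher than -0.02.

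Single luminal genes showed this. Cdh1, encoding E-cadherin, was 10.65 in P219, 9.35 in P502, 7.74 in P268 and 7.36 in P609, and ranged from 5.71 to 10.58 in the 19 with a median of 6.48. Krt8, a keratin of simple epithelia, was 10.48, 8.76, 7.59 and 7.36, and reached 11.71 in P803. Cldn4, a tight junction protein, was 9.65, 7.60, 6.81 and 6.26 against a highest value of 6.82 in the 19. Basal epithelium differed little: 1 of 9 genes, Krt15, was at least 1 log2 unit higher, and the median difference was 0.09.

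**Figure D3:**
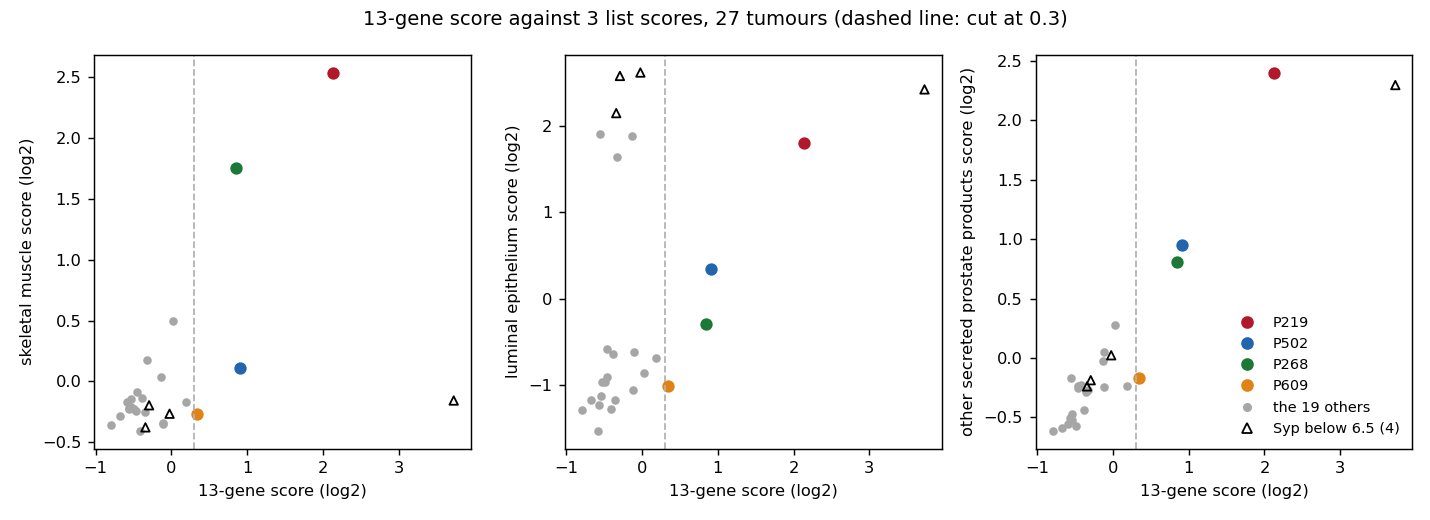
The 13-gene score (horizontal axis, log2) against the list scores of skeletal muscle, luminal epithelium and other secreted prostate products (vertical axes, log2), 1 point per tumour; the dashed line is the limit of 0.3. P219 and P268 stand apart from the 19 others (grey) in skeletal muscle, and 3 grey points reach luminal scores of 1.64 to 1.90 left of the line.

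Among 15 transcription factors of the prostate lineage, 4 were at least 1 log2 unit higher, none lower, and the median difference was 0.57. Without P219 the median was 0.28, and without P219 and P268 it was 0.29, with 2 genes higher. Sox9, a factor of epithelial budding, was 9.90 in P219, 8.36 in P502, 8.07 in P268 and 7.40 in P609. The 19 others lay between 5.90 and 8.16 with a median of 6.69, and P474 was the single one of the 19 above P268 and P609. Gata3, a luminal factor, was 9.39, 8.04, 7.89 and 6.63, and reached 8.79 in the 19. Esr1, the estrogen receptor, was high in P219 (10.99) and P609 (11.28) but not in P502 (6.90) and P268 (7.54), and P474 of the 19 reached 11.16.

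Foxa1, a pioneer factor of prostate epithelium, stood apart in P609. It was 10.99 in P219, 10.95 in P502, 10.78 in P268 and 8.91 in P609, and the 19 lay between 9.70 and 11.25. P609 was thus the lowest of the 23 for Foxa1. Gata2, a zinc-finger factor of the prostate, was 9.91 in P609 and at most 9.31 in the 19. It was higher still in P219, at 10.51, and stood at 8.88 in P502 and 8.59 in P268. The 3 tumours P1276, P966 and P471 had Foxa1 levels between 7.20 and 8.10.

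Skeletal muscle genes were high in P219 and P268. Of 21 skeletal muscle genes, 11 were at least 1 log2 unit higher, with a median difference of 1.21 that became 0.09 without P219 and P268. The list score was 2.54 in P219, 0.11 in P502, 1.75 in P268 and -0.26 in P609, and the 19 ranged from -0.41 to 0.49 (P235). P219 lay above all 19 in 18 of the 21 genes and P268 in 16, but P502 in 2 and P609 in 0. Myh4, the myosin of fast fibres, was 8.22 in P219, 5.30 in P502, 8.15 in P268 and 4.42 in P609, with at most 4.89 in the 19.

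The smooth muscle list score was above the 19 in P219 alone of the 4, at 1.86 against -0.03 in P502, 0.22 in P268 and -0.12 in P609 and at most 0.52 in the 19. Myh11, the smooth muscle myosin, was 10.98 in P219, 7.21 in P502, 7.79 in P268 and 7.04 in P609, and reached 8.62 in P235. Des, which skeletal muscle also holds, was above all 19 in P268 too, at 9.49 against at most 8.54. P425 with low Syp had a smooth muscle score of 1.63. The part of muscle in the results was not tested. The mean differences of Cdcp3, Ceacam1, Papss2 and Pigr were 4.81, 3.34, 2.80 and 2.86 over P502 and P609 alone, whose skeletal muscle scores lay within the range of the 19. That of Prol1 was 0.07 over those 2 tumours and 3.08 over all 4.

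Marks of neighbouring organs were mixed. Of 6 urothelial genes, Upk1b and Upk1a, tetraspanins of the bladder lining, were at least 1 log2 unit higher and Krt20 had a difference of -1.03. Upk1b was 11.71 in P219, 9.04 in P502, 8.92 in P268 and 6.88 in P609, and at most 7.59 in the 19. Upk2 and Upk3a, further plaque proteins of urothelium, lay between 6.49 and 7.35 and between 4.84 and 4.95 in the 4 tumours, and between 6.29 and 7.31 and between 4.62 and 5.13 in the 19. Of 8 seminal vesicle genes, 1 was at least 1 log2 unit higher, and the median difference was -0.01. In each of the 4 tumours, 6 of the 8 lay below the median of all array values. The median difference over the list's genes above the median level alone was 0.84. In Svs5 P235 of the 19, at 12.58, lay above all 4. Genes of epididymis and vas deferens differed by a median of 0.02 over 9 genes. Most of these lay below the median of all array values: 7 in P219, 9 in P502, 9 in P268 and 8 in P609. The part of these tissues in the results was not tested, nor was that of prostate gland around the tumours. The series has no tumour-free prostate, so secretory RNA of that gland and of tumour cells cannot be told apart here.

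The macrophage list had a median difference of 0.24 (0 of 13 genes at 1 log2 unit), endothelium 0.16 (0 of 10), B and plasma cells -0.09 (0 of 8) and neutrophils -0.09 (0 of 8). T and NK cell genes had a median difference of 0.26, with Ccl5 and Cd3g at least 1 log2 unit higher. Fibroblast and matrix genes had a median difference of 0.52, and 3 of 13 were at least 1 log2 unit higher: Dcn (1.57), Igf1 (1.19) and C7 (1.17). That median was 0.26 without P502 and 0.73 without P219 and P268. Adipose genes had a median difference of 0.59, with 1 of 8, Fabp4 (1.62), at least 1 log2 unit higher. Fabp4 was 10.34, 9.34 and 9.18 in P219, P502 and P609, but 6.21 in P268, and P235 of the 19 reached 9.89. The part of these cells in the results was not tested.

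Interferon response genes were higher in P219, P502 and P268. Of 8 measured, 5 were at least 1 log2 unit higher, with a median difference of 1.54. Without P219 and P268 the median was 0.78, with 3 genes higher. Oas1g, an antiviral synthetase, was 8.73 in P219, 7.27 in P502, 8.21 in P268 and 4.52 in P609. The 19 had a median of 3.89, and 18 of them reached at most 4.72, but P235 was at 8.29. The list score was 1.60, 0.88, 1.35 and -0.32 in P219, P502, P268 and P609, and P235 stood at 1.49.

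Class I antigen presentation followed the same order, with a list score of 1.32 in P219, 0.34 in P502, 0.95 in P268 and -0.64 in P609 and a median difference of 0.85 over 8 genes, 2 of them at least 1 log2 unit higher. Without P219 and P268 the median was 0.24 and none was. H2-K1, a class I heavy chain, was 11.37, 10.05, 10.22 and 8.89, and reached 10.42 in P235. P609 was again near the median of the 19 (8.71).

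Genes of hypoxia and glycolysis stood lower, with a median difference of -0.41 over 10 genes and 2 of them at least 1 log2 unit lower. Egln3, an oxygen-sensing hydroxylase that hypoxia induces, was 6.25 in P219, 4.96 in P502 and 5.77 in P268, and 7.52 in P609, the same as the median of the 19, which ranged from 5.88 to 9.90. Bnip3, a mitophagy gene, was 7.61, 7.69, 7.63 and 8.47, with a median of 8.95 in the 19. No mitosis gene was 1 log2 unit higher or lower (0 of 11, median difference -0.01), and no immediate early gene was (0 of 9, median difference -0.16).

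**Figure D4:**
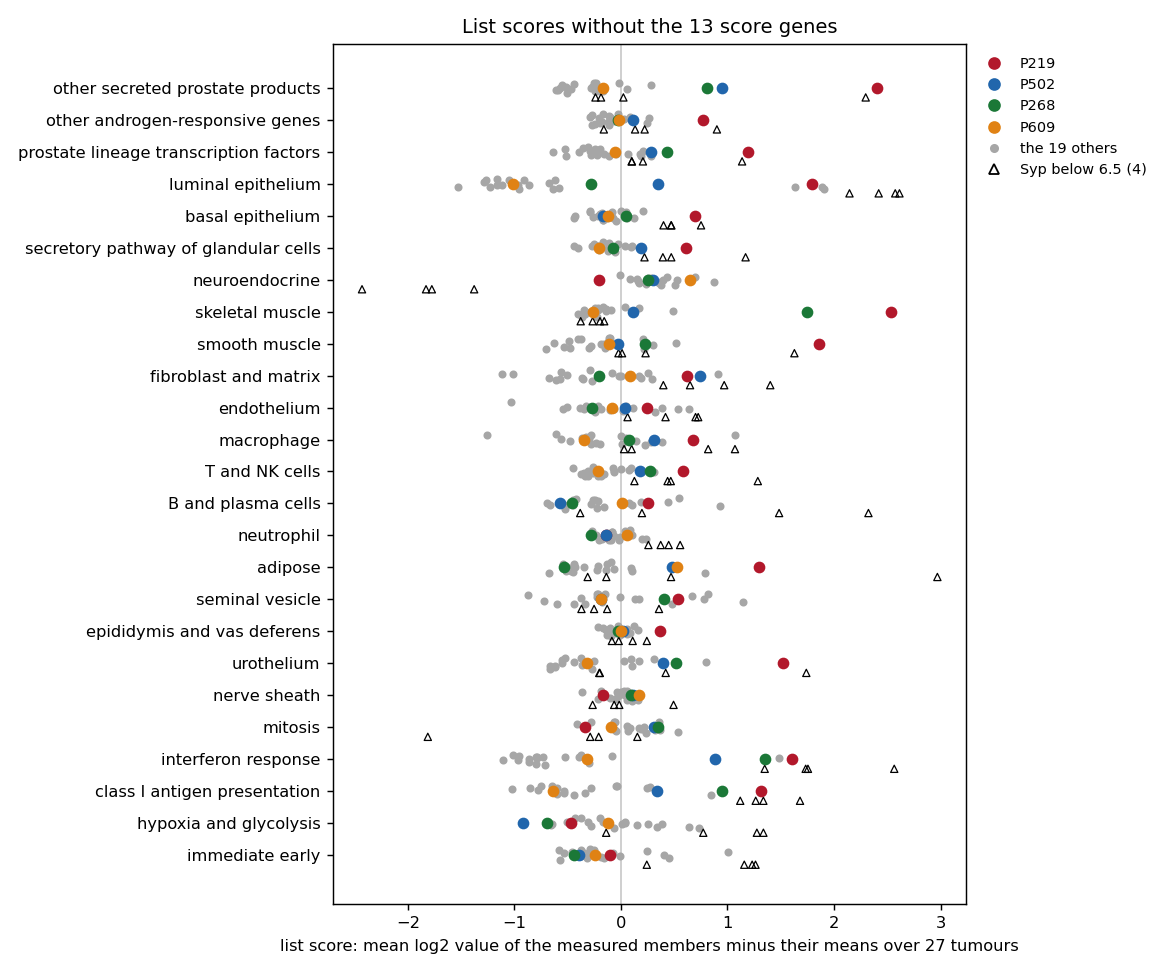
List scores (horizontal axis, log2) of 25 gene lists in 27 tumours, 1 row per list, without the 13 score genes. The 4 selected tumours are coloured; P219 lies highest of the 23 tumours for skeletal and smooth muscle and other secreted products, P268 is second for skeletal muscle, and P609 lies among the grey points of the 19 others in all 3.

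The 4 tumours were thus not uniform. Genes above all 19 and at least 1 log2 unit over their mean numbered 995 in P219 (4.49% of 22167) and 228 in P502 (1.03%). They numbered 310 in P268 (1.4%) and 234 in P609 (1.06%). By the same measure, each of the 19 set against the other 18 had between 55 and 694 such genes, with a median of 113. Of the 1429 genes found in any of the 4 (6.45% of all genes compared), 1152 were found in exactly 1 tumour and 6 (0.0271%) in all 4. P219, P502 and P268 shared 49 (0.221%), with or without P609. The arrays of P502 and P268 were the most alike pair among the 4, with a Pearson r of 0.986 across array values, which are not independent of each other. Pairs within the 4 were no more alike (median r 0.9607) than pairs within the 19 (median r 0.9611). P219, P502 and P268 each had their closest match within the 4. P609 was closer to P912 of the 19 (r 0.971) than to P502 (r 0.953), its closest match within the 4.

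Each tumour had genes in which it lay highest of the 23 tumours with Syp of at least 6.5. P219 held Pate9, Ctse, an aspartic protease, and Obp2a, an odorant-binding lipocalin, the latter at 10.33 against 6.63 in P268, the next highest. P502 had the highest levels of the 23 of Scgb2b27 and of a second secretoglobin, Scgb2b7, at 7.59 against 5.58 in P219, but P425 with low Syp reached 10.65 for Scgb2b7. P268 held Sln, the regulator of the muscle calcium pump, at 6.58, and Nr0b1, an orphan nuclear receptor, at 7.29 against at most 5.79. P609 held Glp1r, the receptor of an incretin hormone, at 9.27 against at most 6.37, and Amtn, a tooth enamel protein gene, at 9.16 against at most 6.22.

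Genes shared by P219, P502 and P268 but not P609 were chosen after their values were seen. Mmp7, a metalloproteinase of glandular epithelium, was 12.23, 10.93 and 10.63 in these 3 and 6.06 in P609, with a median of 6.21 and a highest value of 9.59 in the 19. Cyp2f2, a cytochrome of secretory cells of the airway, was 10.66, 10.12 and 8.51 against 6.28 in P609, and Adh1, an alcohol dehydrogenase, was 10.94, 9.64 and 8.95 against 6.61. For both, P609 lay within the range of the 19, whose highest value was 7.31 for Cyp2f2 and, for Adh1, lay below the 8.95 of P268. P609 and the other 3 had in common the smaller set of Cdcp3, Ceacam1, Papss2, Pigr and the rest of the 11, and Mme. The 11 were picked because P609 and the other 3 lay above all 19, so their sharing is fixed by the selection. Mme is a score gene and is not independent of the selection either. For Slc10a5, Lrrc31 and Cyp2b10 the place of P609 above the 19 rested on levels below the median of all array values.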

How the data were processed

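Total RNA of 27 tumours was measured on 1-colour Affymetrix arrays. The values are log2 expression as the authors deposited them. Partek is named in the submitters' processing notes, and no source read for this work states how the arrays were normalized. Medians of the 27 arrays lay between 5.67 and 5.82, so no further scaling was applied. Of 41345 probe sets, 23521 had 1 gene symbol, 1814 several and 16010 none, and only the first were used. For each of 22180 genes the probe set with the highest mean was kept. The 4 tumours were chosen by Syp and the 13-gene score, and the 13 genes were left out of all counts. The members and the gene lists were chosen with earlier results of these data known. No test was made, because the tumours were selected on the values described. Genes named by rule were the score genes, Scgb2b27, Prol1 and genes that do not overlap between the groups. The 6 genes with the largest gap in each tumour and those with the largest differences in each list were added. Further list members, among them Agr2, Foxa1 and Gata2, fell under none of these rules and were named with their values known. Genes outside the lists and rules are marked as chosen after their values were seen. The contrast was tested on simulated data. Replicates are 1 sample per tumour, and the number of tumours limits the precision. Python 3.11.15, pandas 2.3.3, numpy 2.4.6 and matplotlib 3.10.9 were used.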

Additional observations from a re-analysis of the deposited data

Results flagged for a closer look

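Of 61 sets of 4 values examined (a named gene or list score in the selected tumours), 2 had 1 tumour far from the other 3, where chance flags about 1 in 20. Both concerned P219. Its smooth muscle list score was 1.8573, and the gap to the next tumour took up most of the range of the 4, at the very limit of the rule for an outlying value. Its score for epididymis and vas deferens genes was 0.364, with a gap of 0.875 of the range; Adam28 and Defb2 were the genes of that list in which P219 lay above all 19 others, at 7.08 and 6.86.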

How the results depend on the processing

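The main counts were 341 genes higher and 83 lower by 1 log2 unit, with 16 above and 9 below all 19 without overlap. With genes above the median level alone they were 211 higher, 8 above and 5 below. A score limit of 0.5, which leaves out P609, gave 598 higher, 135 above and 129 below, and a limit of 0.1, which adds P503, gave 224, 2 and 0. Without P219 and P268 there were 191 higher, 55 above and 49 below. A limit of 1.5-fold gave 976 higher and 355 lower. Leaving out each of the 4 tumours in turn gave 191 to 594 higher, 80 to 121 lower, 23 to 141 above and 19 to 136 below, with the fewest higher genes without P219 and the most without P609. Without the 19's tumours of high luminal score 37 genes lay above and 18 below, and without P235 (chosen after seeing the data) 27 and 20. With the 4 low-Syp tumours among the others, also chosen after seeing the data, 51 were lower, 1 lay above and 2 below. Fewer tumours make non-overlap easier by construction. Scoring the 13 genes as z-scores left 3 members, without P609; the other 5 rules tried gave the same 4. The 11 higher and 3 lower genes stayed without overlap under both other choices of probe set, quantile normalization and median centring, but 0 and 1 (Hes6) did with the low-Syp tumours added. Of 399 list medians over 25 lists and 16 settings, 396 moved by less than the SD of the list score among the 4 tumours, which is wide, and 25 turned sign. The turns were in 8 lists, all with main medians between -0.09 and 0.09 after rounding. These were basal epithelium, epididymis, mitosis, nerve sheath, neuroendocrine, neutrophil, seminal vesicle and urothelium. The neuroendocrine median, -0.03, turned to at most 0.30. The seminal vesicle median, -0.01, turned in 7 settings and reached 0.84 with genes above the median level alone.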

Other observations

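Some genes outside the lists, chosen after their values were seen, stood lower in most of the 4 tumours but overlapped with the 19. Gad2, which makes the transmitter GABA, was 6.24 in P219, 5.45 in P502, 5.29 in P268 and 5.62 in P609, beside a range of 5.37 to 10.98 and a median of 8.27 in the 19. Sstr2, a somatostatin receptor, was 5.98, 6.77, 6.37 and 7.17 in the same order, and the 19 ranged from 5.95 to 10.62 with a median of 8.61. For both genes the 4 lay in the lower part of the range. Dlx5, a homeobox factor, was 4.72, 4.99 and 5.18 in P219, P268 and P609 but 8.94 in P502, with a median of 7.35 in the 19, and Slc38a11, an amino acid transporter, likewise was 8.93 in P502 and between 5.67 and 6.27 in the other 3.

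The genes of this paragraph were also chosen after their values were seen. The gene 9530002B09Rik overlapped between the groups through P233 alone, and its mean difference was 6.11. It was 11.50 in P219 and P502, 10.26 in P268 and 9.45 in P609, and the 19 had a median of 3.89, with P233 at 9.65 and the next tumour at 6.71. P425 was at 3.44, unlike for Cdcp3, where it was at 11.86. A further provisional gene, 2310057J18Rik, was 12.42 in P219 and 12.16 in P268, but 5.58 in P502 and 3.67 in P609, and P235 of the 19 was at 11.86. Scd1, a fatty acid desaturase, was 11.13 in P219, 9.71 in P502, 8.01 in P268 and 9.73 in P609, beside a highest value of 9.16 in the 19 and values of 10.42 to 11.73 in the 4 tumours with low Syp.

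P609 alone of the 27 tumours had high values for 2 odorant receptor genes, Olfr330 at 8.80 and Olfr503 at 8.14. The next highest of the other 22 tumours with Syp were 4.39 and 4.49.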
